A study of Mus musculus with 2 samples.

Results

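The 8 genes described here encode high mobility group (HMG) proteins: Hmga1, Hmga2, Hmgb1, Hmgb2, Hmgb3, Hmgn1, Hmgn2 and Hmgn3. They were taken by gene name, with every non-control probe that carries such a name, which gave 16 of the 41174 probes on the array. The genes were chosen by their family name with the log2 ratios of this same contrast known, so those ratios are given as a description and no p-value is given for any of them. The study used the mouse line G1E-ER-GATA-1 and 2 two-colour Agilent arrays. Its parent, G1E, is a red cell precursor line made from embryonic stem cells without GATA-1, the factor that drives erythroid maturation. The derived line holds a fusion of GATA-1 with the ligand-binding domain of the oestrogen receptor, active when β-estradiol is added. Both groups therefore shared the GATA-1-null background, the fusion protein and 24 h of β-estradiol. They differed in the siRNA, which was either a control or directed against ETO2, a corepressor whose gene is Cbfa2t3. Control RNA carried Cy5 (red) and ETO2 siRNA RNA carried Cy3 (green) on both arrays, with 1.2 µg of total RNA per dye, with no dye swap. A probe's own dye bias would therefore go 1 way on both arrays and cannot be told apart from the siRNA. All samples came from 1 line, and the labels do not say whether the 2 arrays held RNA of separate cultures, so SDs and p-values measure only the spread between these arrays, which may be technical.

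HMG proteins are abundant, small chromatin proteins that bind DNA or nucleosomes with little sequence preference and bend or loosen chromatin. HMGA proteins bind the minor groove of AT-rich DNA through AT-hooks and are typical of dividing, undifferentiated cells. HMGB proteins bend DNA through HMG-box domains, and HMGN proteins bind the nucleosome core and counteract linker histone H1. Proliferating erythroid precursors express several of them, and chromatin condenses as these cells mature.

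Of the 8 genes, Hmga1 had the largest difference. Its level with ETO2 siRNA was 29.2% of the control level, a 3.43-fold lower level, and the log2 ratio of ETO2 siRNA over control siRNA was -1.78 ± 0.14 (SD, n = 2 arrays). The log2 ratio of Hmgb1 was -0.48 ± 0.16 at the probe that represented it, but its other probes lay closer to 0 or above it. Hmgb3 stood at -0.06 ± 0.04 and the unsaturated probe of Hmgb2 at -0.07 ± 0.09. Hmga2 was dim and its probes disagreed in sign. The brightest probes of Hmgb2, Hmgn1 and Hmgn2 were saturated in the control channel on both arrays. Hmgn3 was not well above background in either channel.

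The probes are 60 bases long, and what each reports depends on the stretch of transcript that it matches. The last 30 bases of the probes on which the results turn are shown, 5′ to 3′, as the array files give them. The capitals in the Hmga1 probe mark AATAAA, the polyadenylation hexamer, which 4.78% of all probes hold on the strand printed. The capitals in the Hmga2 probe mark CTACCTC, the complement of the let-7 seed. None of the letters of the other probes is marked.
Hmga1 A_51_P483118: atttgcagttacttgAATAAAaaacaaata
Hmgb1 A_52_P117821: taacgacaataattgttgttctgttaactg
Hmgb1 A_52_P324336: gttgcaatatagtaactttatatttgcaaa
Hmgb1 A_51_P269554: aaagctttgcccttctatctagatatggat
Hmgb1 A_52_P323044: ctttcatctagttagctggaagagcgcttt
Hmgb2 A_51_P499940: aactgtacagatttttgtatagctgatgag
Hmgb2 A_52_P485417: gggataagaaaggaaagaaaaaagacccca
Hmga2 A_52_P300730: atcaaaacacactaCTACCTCttaagtccc
mmu-let-7a-5p: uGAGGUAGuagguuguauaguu
The let-7a sequence is from RefSeq, with its seed (bases 2 to 8) in capitals. Hmga2 is the textbook target of let-7, a microRNA family that rises as cells differentiate. CTACCTC was found in 126 of 41174 probes (0.306%) on the strand printed. It was found in 1 of the 3 Hmga2 probes.

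Some measurements of the arrays bear on every value below. Cbfa2t3, the siRNA's target, had log2 ratios of -0.39 and -0.46, a level of 74.6% of control (limma, adjusted p = 9.07e-05), and its mean was -0.42 after loess and -0.98 with median centring. Of 16585 genes tested with limma, 40.7% passed an adjusted p of 0.05, 18.4% as higher and 22.3% as lower with ETO2 siRNA. A passing gene was therefore common. The control channel was brighter on both arrays before normalization, with median spot signals of 105 against 82.8 on array 1 and 105 against 77.5 on array 2. Saturated control spots numbered 471 and 495, and saturated ETO2 siRNA spots 39 and 11. Of 12 embryonic stem cell markers, 6 were measured, of which 0 rose and 3 fell, and Pou5f1, Nanog, Sox2, Zfp42, Klf4 and Lin28a were not well above background in either channel, beside a cell type label that calls the cells ES cells. Of 10 erythroid markers measured, 9 passed as higher and 1 as lower, 3 of the 9 with a saturated control channel. The ETO2 siRNA signal of Hbb-bt and Hba-a1 was clipped too on each array, so their ratios give no direction. Other Hbb-bt probes were at -0.21 to 1.05. With saturated probes left out, 6 of 7 erythroid markers rose and 1 fell, with a median of 0.51. Clipped spots included, the mean log2 signal of the 10 was 13.55 and 13.59 in control and 14.39 and 14.44 with ETO2 siRNA. Slc4a1, which encodes the chloride and bicarbonate exchanger of red cells, rose by 2.88 ± 0.07 (limma, adjusted p = 5.67e-13). Of 6 mast cell and eosinophil markers measured, 1 rose and 3 fell. Their mean log2 signal was 7.45 and 7.37 in control and lower by 0.45 and 0.41 with ETO2 siRNA, and Tpsb2, Ms4a2 and Epx were not well above background. Granulocyte and macrophage markers counted 0 higher and 2 lower of 6, megakaryocyte markers 3 and 1 of 6, and lymphocyte markers 1 and 2 of 5. With median centring 68.0% of all genes passed, 4.12% of them as higher. The erythroid count then became 5 higher and 3 lower, with Epor, Klf1 and Tfrc below 0, and the megakaryocyte count 2 and 3. The other counts became 0 and 4 for embryonic stem cell markers, 1 and 3 for mast cell and eosinophil markers, 0 and 3 for granulocyte and macrophage markers and 0 and 2 for lymphocyte markers. The part of these markers in the HMG values was not tested. In RNA from whole cultures, fewer cells of a type and less RNA per cell cannot be told apart.

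**Figure D1:**
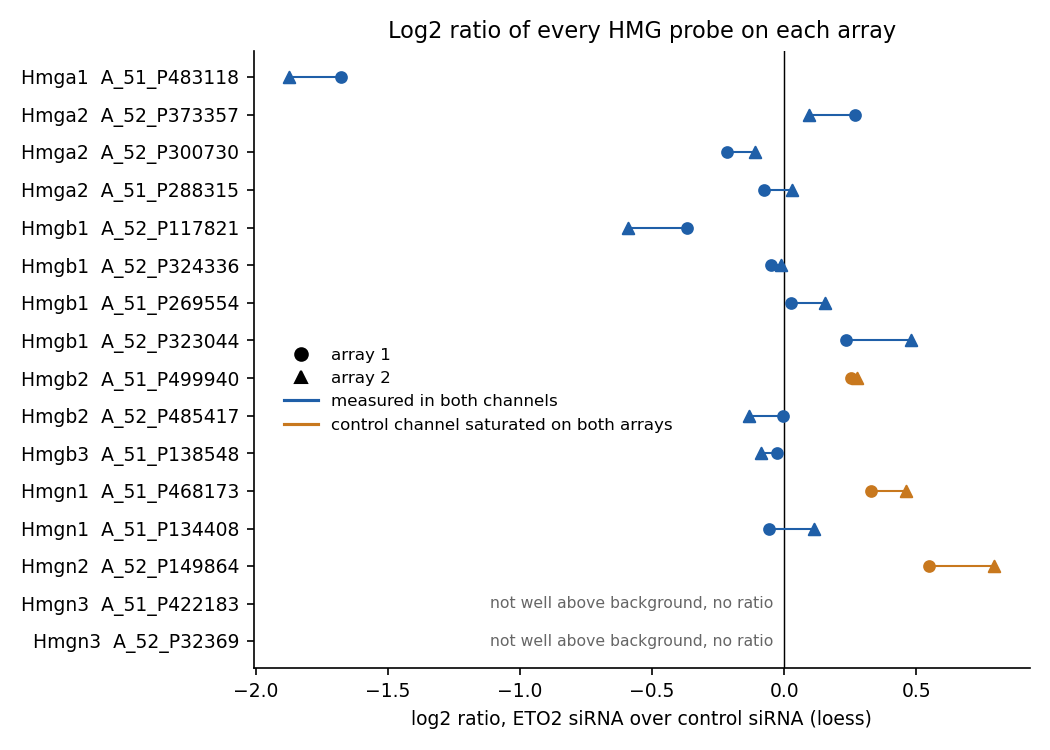
Log2 ratio of ETO2 siRNA over control siRNA after loess normalization (horizontal axis) for each of the 16 HMG probes (rows) on array 1 (circles) and array 2 (triangles); orange marks a control channel saturated on both arrays, and the Hmgn3 probes have no ratio. Hmga1 stands at -1.68 and -1.87, and the 4 Hmgb1 probes spread from below 0 to above 0.

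The spot signals show which of these ratios rest on readable spots. The scanner's upper limit was 65205 units in the red channel and 65203 in the green. The control channel of Hmga1 read 60338 and 64575 units, and neither spot carried the saturation flag. On array 1, 0 of its 55 pixels were at the limit, and on array 2, 14 of 55 were. The ETO2 siRNA channel of Hmga1 read 10137 and 8263 units, so its reading was far from both the limit and the local background. A clipped control reading is a lower limit of the raw control signal. Saturated spots also entered the loess curve, and with them given no weight the Hmga1 log2 ratio was -1.73 in place of -1.78.

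**Figure D2:**
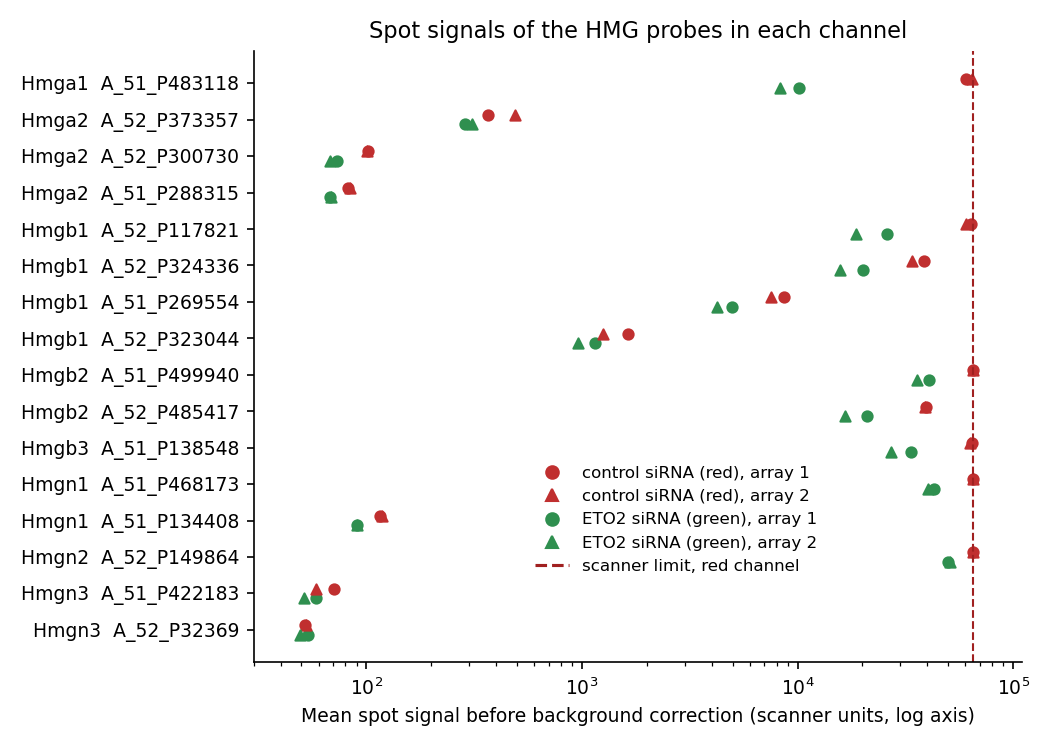
Mean spot signal before background correction in scanner units (log axis) for each HMG probe (rows), control siRNA in red and ETO2 siRNA in green, array 1 as circles and array 2 as triangles; the dashed line is the red channel's limit of 65205 units. The control signals of 3 probes, of Hmgb2, Hmgn1 and Hmgn2, sit at the limit on both arrays, and both Hmgn3 probes lie near 50 to 71 units in every channel.

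Hmga1 encodes the AT-hook protein HMGA1, which opens chromatin at AT-rich enhancers and promoters. It had 1 probe, matched to RefSeq transcript NM_016660. The log2 ratio was -1.68 on array 1 and -1.87 on array 2, or 3.20-fold and 3.67-fold lower. Hmga1 had rank 3 from the lowest among the 16585 genes tested, with rank 3 on array 1 and rank 2 on array 2. Only 38 genes (0.229%) were at least 2-fold lower on both arrays. Because this contrast chose the gene, the rank is a description.

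The Hmga1 control signal was among the brightest unsaturated signals, and probes of like brightness are given beside it as a description. On the array, 143 unsaturated probes had a control signal over 50000 units on both arrays. Their median log2 ratio was -0.20, and 113 of them lay below 0. The 5th to 95th percentile ran from -0.69 to 0.32. Hmga1 was the lowest of the 143, and the next was Nrgn, the neuronal calmodulin-binding protein neurogranin, at -1.03. Taking probes by a bright control signal, the denominator, itself favours ratios below 0, and Hmga1 was chosen with its ratio known, so nothing is read from its place among them.

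**Figure D3:**
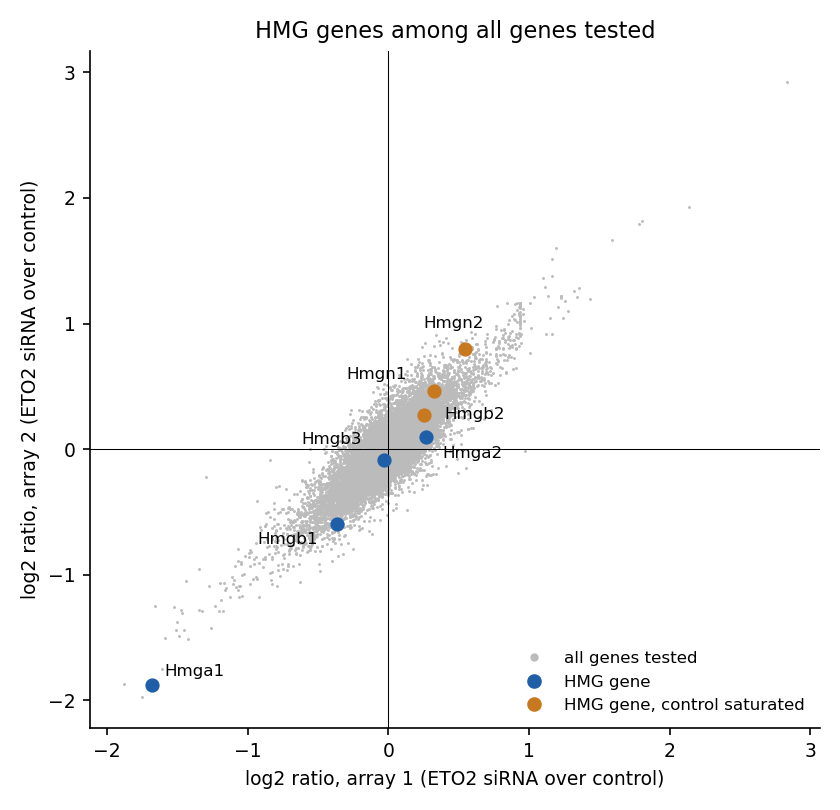
Log2 ratio of ETO2 siRNA over control siRNA on array 1 (horizontal axis) and array 2 (vertical axis) for the 16585 genes tested (grey) and the 7 measured HMG genes (blue, or orange where the control channel was saturated on both arrays). Hmga1 lies at the low end of all genes on both arrays, and the other HMG genes lie within the grey cloud.

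Hmga2 encodes the second AT-hook protein, an oncofetal factor that differentiated cells usually silence. Its brightest probe, A_52_P373357, was designed to the cDNA clone AK035164 and read 285 and 308 units with ETO2 siRNA against 365 and 490 in control. Its log2 ratio was 0.27 and 0.10, with a mean of 0.18 ± 0.12. Both probes to the RefSeq transcript NM_010441 were dimmer and went the other way or stayed near 0. The probe that holds the let-7 seed complement, A_52_P300730, had log2 ratios of -0.22 and -0.11. The remaining probe, A_51_P288315, had -0.08 and 0.03, and its ETO2 siRNA channel was well above background on 1 of 2 arrays. The mean over the 3 probes was -0.0023. No direction for Hmga2 holds over its probes, and its RefSeq probes read 67.8 to 102 units over a local background of 43 to 53.5.

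Hmgb1 encodes the most abundant HMG-box protein, which bends DNA in the nucleus and acts as an alarm signal outside the cell. Its 4 probes gave 4 different ratios in the same order on both arrays. That order was also the order of brightness, with the lowest ratio at the brightest probe and the highest at the dimmest. Probe A_52_P117821 had log2 ratios of -0.37 and -0.59, with control signals of 63637 and 60752 units. Of its 58 control pixels, 9 were at the limit on array 1 and 1 on array 2. Probe A_52_P324336, designed to BC064790, had -0.05 and -0.01, with control signals of 38764 and 33915 units. The first of these probes read 1.39-fold lower and the other lay near 0.

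The other Hmgb1 probes pointed upward. Probe A_51_P269554 had log2 ratios of 0.02 and 0.15, and probe A_52_P323044 had 0.23 and 0.48. Their control signals were 8667 and 7533 units and 1631 and 1252 units. The range over the 4 probes was 0.84, against SDs between arrays of 0.03 to 0.17. The order held in the scanner software's processed signals, where the range was 0.53, and with median centring in place of loess, where it was 1.05. A median-centred ratio was below 0 at all 4 probes, from -1.12 to -0.07. The longest run of bases that any Hmgb1 probe shared with another was 7, so the 4 probes read different stretches. They also differed in brightness in the same order as the ratios, so stretch and signal level cannot be told apart. The mean of the 4 probes was -0.02, and no direction for Hmgb1 holds over its probes.

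Sequences that resemble HMG genes were also on the array, and processed copies of Hmgb1 and its relatives are numerous in mammalian genomes. They were found by their descriptions, after their values were seen. The Hmgb1-related sequence Hmgb1-rs17 had log2 ratios of -0.27 and -0.45, which became -0.04 on average in the processed signals. The other 5 sequences like Hmgb1 had mean log2 ratios of -0.21, -0.16, -0.14, -0.11 and -0.06. A sequence like HMG-2, LOC619863, had 0.28 and 0.13, and a sequence like HMG-17 (the older name of HMGN2), Gm6985, had 0.35 and 0.39. Hmga2-ps1, a pseudogene of Hmga2, had -0.24 and -0.11. None of these probes was saturated. With median centring all 9 lay below 0, LOC619863 at -0.41 and Gm6985 at -0.10. No HMG probe shared a run of more than 10 bases with the 9 related probes compared, but whether a copy's transcript binds a probe of its parent could not be checked without a genome of the array's build.

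Hmgb2 encodes the HMG-box protein of dividing and immature cells. Its probe A_51_P499940 read 65221 units in control on both arrays, with 52 of 52 pixels at the limit each time. The ETO2 siRNA channel read 40834 and 35703 units. The normalized log2 ratio of 0.26 therefore rests on a clipped control signal, and no fold is given. Its other probe, A_52_P485417, was not saturated and read 21086 and 16576 units with ETO2 siRNA against 39481 and 38909 in control. This probe had log2 ratios of -0.003 and -0.13 after loess and a mean of 0.17 in the processed signals, so that its sign turned with the scaling.

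Hmgb3 encodes an HMG-box protein known from haematopoietic progenitors. It had 1 probe, A_51_P138548, with control signals of 64626 and 62941 units. Neither spot carried the saturation flag, but 23 of 53 and 9 of 59 control pixels were at the limit. The log2 ratio was -0.03 and -0.09 after loess, 0.003 in the processed signals and -0.71 with median centring.

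Hmgn1 and Hmgn2 encode nucleosome-binding proteins that compete with linker histone H1. The Hmgn1 probe A_51_P468173 read 65221 and 65167 units in control, with 47 of 47 and 51 of 56 pixels at the limit, and 42983 and 40442 units with ETO2 siRNA. Its normalized log2 ratio was 0.39, with no fold given. The other Hmgn1 probe, A_51_P134408, was designed to the cDNA clone AK080436 and was dim, at 90.2 and 90.7 units against 116 and 118. Its log2 ratios were -0.06 and 0.11, on either side of 0. The only Hmgn2 probe, A_52_P149864, read 65216 and 65221 units in control and 50008 and 50756 with ETO2 siRNA. Of its control pixels, 47 of 49 and 54 of 54 were at the limit, and its normalized log2 ratio of 0.67 has no fold either.

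Hmgn3 encodes a nucleosome-binding protein known from brain, eye and pancreatic islets. Both of its probes were not well above background in either channel on either array. Their signals were 49.0 to 70.9 units over local backgrounds of 43.5 to 49. No ratio is given for it.

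Counted by gene, 7 of the 8 genes and 14 of the 16 probes passed the filter on dim probes. At the representing probe, 3 genes (Hmga1, Hmgb1 and Hmgb3) were below 0 on both arrays and 4 (Hmga2, Hmgb2, Hmgn1 and Hmgn2) were above. Of all genes, 43.8% were below 0 on both arrays and 35.3% above. In the whole-table limma fit 6 of the 7 passed the threshold, 2 as lower and 4 as higher, beside 40.7% of all genes, and nothing is read from that count because the contrast chose the genes. Of the 4 higher ones, 3 had a saturated control channel, and Hmga2 was the other. With saturated probes left out, 6 genes were measured and 3 passed, beside 39.5% of all genes. The median log2 ratio of the 7 was 0.18, against -0.02 over all genes.

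The scaling moved every one of these genes. Median centring lowered the median of all genes from -0.02 to -0.31 and put 6 of the 7 HMG genes below 0 on both arrays and 0 above. With it 68.0% of all genes passed, 4.12% of them as higher. The share of all genes below 0 on both arrays was not counted with median centring, so nothing is read from the 6. Hmga1 was then at -2.39, Hmgb1 at -1.12 and Hmgb3 at -0.71. Hmgb2 stood at -0.39, Hmgn1 at -0.27, Hmga2 at -0.13 and Hmgn2 at 0.007. In the processed signals Hmga1 was at -1.85 and Hmgb1 at -0.32. With the mean of all kept probes Hmgb1 was at -0.02. The signs of Hmga2, Hmgb2 and Hmgn1 turned with median centring, and that of Hmgb3 turned in the processed signals, where it was at 0.003. Hmga1 stayed below 0 in all of these.

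**Figure D4:**
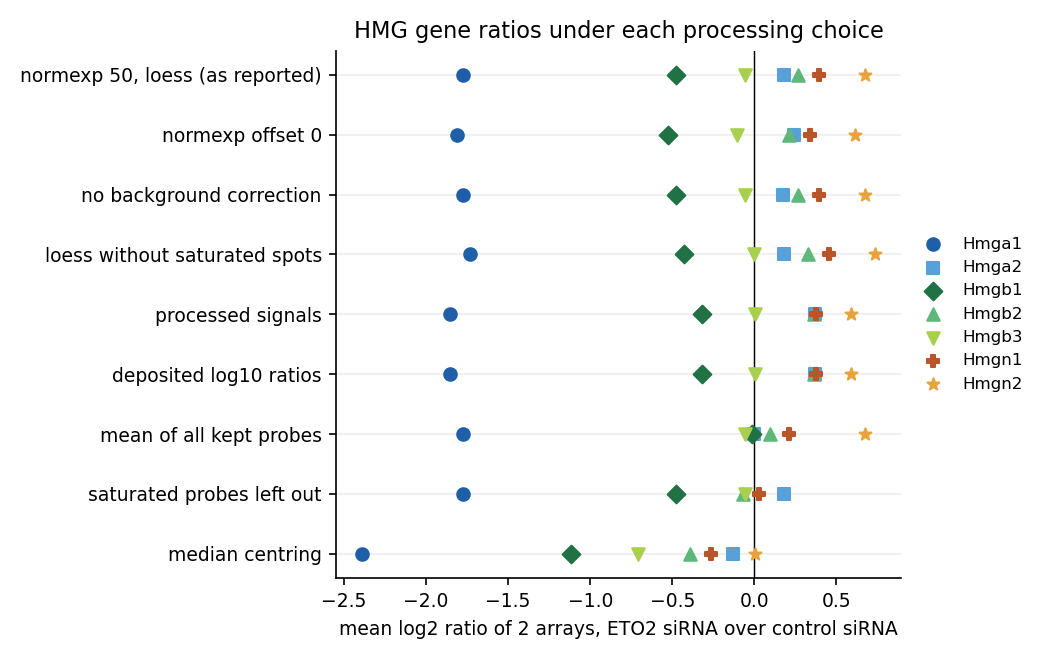
Mean log2 ratio of ETO2 siRNA over control siRNA over 2 arrays (horizontal axis) for each measured HMG gene (symbols) under 9 ways of processing the same spots (rows). Hmga1 lies between -2.39 and -1.73 in every row, and the other genes shift together to the left with median centring.

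Related chromatin genes were then described by list, with the lists chosen with earlier results of these data known. Each gene is given by its limma call, beside the 18.4% higher and 22.3% lower among all genes. With median centring 68.0% of all genes passed, 4.12% of them as higher. In the processed signals 15.0% passed, 48.2% of them as higher. HMG-box factors share the DNA-bending domain of HMGB proteins. Of 18 measured, 3 rose and 6 fell, with a median log2 ratio of -0.09. Ubtf, which organizes ribosomal DNA for RNA polymerase I, rose by 0.69 ± 0.05 (limma, adjusted p = 1.01e-06) and was at 0.19 with median centring. Sox6, a factor that silences embryonic globin, rose by 0.50 ± 0.08, and its other probe was at 0.08. Hmgxb4 rose by 0.41 ± 0.06 but was at -0.03 with median centring, and its other probes were at -0.25 to 0.12. Ssrp1, a subunit of the histone chaperone FACT, fell by 0.41 ± 0.09, but its control channel was saturated on 1 array and it was at -0.01 in the processed signals. Tox4 fell by 0.40 ± 0.09, although its other probe was at 0.31. Bbx fell by 0.35 ± 0.03, with other probes at -0.35 to 0.17. Pbrm1, a subunit of a SWI/SNF remodelling complex, fell by 0.32 ± 0.10, with other probes at -0.05 to 0.31. The count was 2 higher and 0 lower in the processed signals, and 2 higher and 14 lower with median centring.

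In the list set beside the HMGN genes, the further HMGN gene Hmgn5 rose by 0.57 ± 0.01 (limma, adjusted p = 5.88e-06). Nucks1, which was listed with it but is not an HMGN gene, was at 0.03, which did not pass. Hmgn5 was at 0.02 with median centring, and its other probe was at 0.16. HMGN proteins oppose linker histones, which clamp DNA at the nucleosome. Of 8 linker histones measured, 2 rose and 1 fell, with a median of -0.05. The count was 0 higher and 1 lower in the processed signals and 0 higher and 5 lower with median centring. The gene that fell was H1f2, which encodes histone H1.2. Its log2 ratio was -1.34 on array 1 and -0.96 on array 2, a 2.22-fold lower level (limma, adjusted p = 6.00e-08). H1f2 stayed low in the processed signals (-1.05) and with median centring (-1.63). H1f5 rose by 0.36 ± 0.28 and H1f8, the oocyte form, by 0.26 ± 0.04, but with median centring they were at -0.11 and -0.03.

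Histone chaperones hand histones to DNA. Of 19 measured, 9 rose and 5 fell, with a median of 0.17, and 2 of the 9 had a control channel saturated on both arrays. The largest fall was that of Ssrp1, which is also counted among the HMG-box factors, with the limits given there. In the processed signals 4 rose and 0 fell. Chaf1b and Chaf1a, subunits of the CAF-1 complex of DNA replication, rose by 0.64 ± 0.03 and 0.46 ± 0.05. Asf1b, which passes histones to CAF-1, rose by 0.54 ± 0.01. With median centring Asf1b and Chaf1a turned to -0.04 and Chaf1b was at 0.09. Npm1 passed as higher too, but its control channel was saturated on both arrays, so no fold is given. Supt6 fell by 0.27 ± 0.13 and Daxx, the H3.3 chaperone, by 0.25 ± 0.12. Nap1l4 fell by 0.21 ± 0.05, while its other probes were at 0.31 to 0.56. Architectural and heterochromatin proteins counted 9 higher and 3 lower of 18, with a median of 0.18. In the processed signals the count was 2 higher and 0 lower. Smc2, a condensin subunit, rose by 0.60 ± 0.32, Cbx5, which encodes HP1α, by 0.50 ± 0.12, Dek by 0.46 ± 0.31 and Top2a by 0.32 ± 0.08, and with median centring Dek turned to -0.13 and Top2a to -0.20, while Smc2 was at 0.06 and Cbx5 at 0.02. Other probes were at 0.04 to 1.02 for Smc2, 0.31 for Dek, -0.06 to 0.05 for Cbx5 and -0.15 to 0.16 for Top2a. Smc3, a cohesin subunit, fell by 0.22 ± 0.02 but was at 0.08 in the processed signals, and its other probe was at 0.64. Stag2 fell by 0.22 ± 0.08, with other probes at -0.41 to 0.45, and Cbx1 fell by 0.21 ± 0.11.

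**Figure D5:**
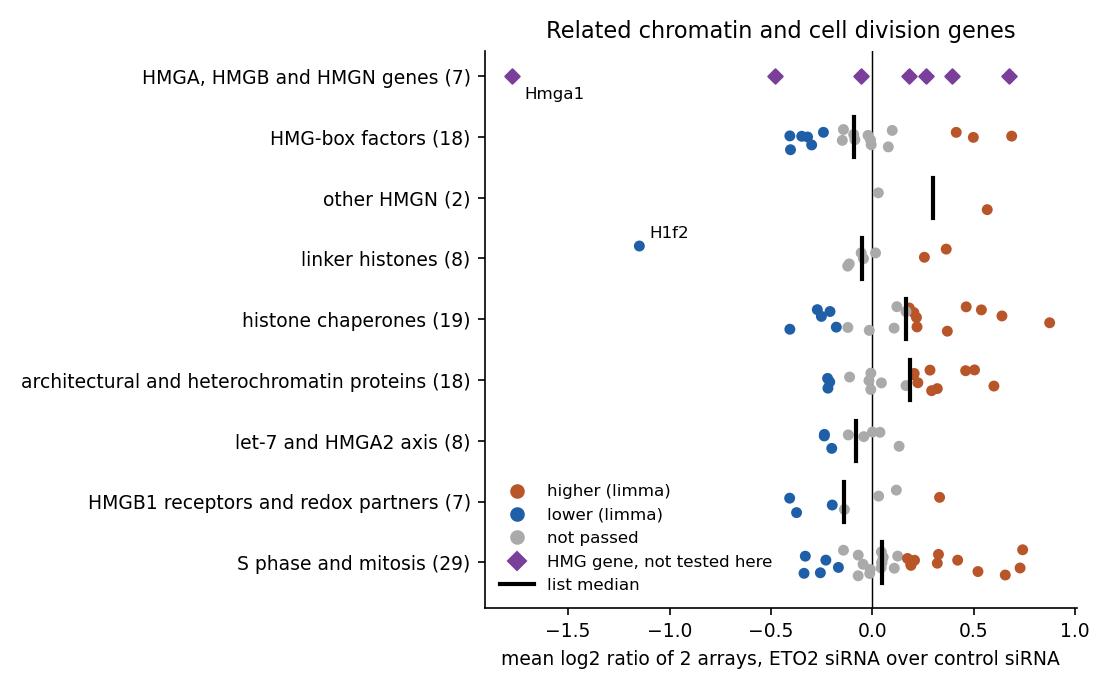
Mean log2 ratio of ETO2 siRNA over control siRNA over 2 arrays (horizontal axis) for each measured gene of the 8 related lists and for the 7 measured HMG genes (rows, with the number measured); colour gives the limma call and the black bar the list median. Hmga1 at -1.78 and H1f2 at -1.15 are the 2 lowest points.

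Partners of single HMG genes were counted in the same way. In the list around let-7 and Hmga2, 0 of 8 measured genes rose and 3 fell in limma, and the median was -0.08. With median centring 0 rose and 7 fell, and in the processed signals 0 rose and 1 fell. Igf2bp1 and Igf2bp3, RNA-binding proteins of fetal cells, fell by 0.24 ± 0.03 and 0.20 ± 0.16, and Arid3a fell by 0.24 ± 0.08. Of 7 receptors and redox partners of HMGB1, 1 rose and 3 fell, against 0 and 6 with median centring and 0 and 1 in the processed signals. Apex1, a DNA repair endonuclease, rose by 0.33 but was at -0.22 with median centring. Txn1, which encodes thioredoxin, fell by 0.41 ± 0.03, the adhesion receptor Cd44 fell by 0.37 ± 0.09, and Cd24a fell by 0.20 ± 0.05.

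Hmga1 and Hmgb2 are known to be high in dividing cells, so genes of S phase and mitosis were counted beside them. Of 29 measured, 11 rose and 5 fell, with a median of 0.05, and 4 of the 11 had a control channel saturated on both arrays. Top2a, 1 of the 11, is also counted among the architectural proteins. In the processed signals 5 rose and 1 fell. Ube2c, a ubiquitin-conjugating enzyme of mitotic exit, rose by 0.65 ± 0.17 and Ccne1, which encodes cyclin E1, by 0.52 ± 0.09, though with median centring Ube2c was at 0.08 and Ccne1 at -0.04. Ccna2 fell by 0.34 ± 0.03, Ccne2 by 0.33 ± 0.17, Cdc20 by 0.26 ± 0.12 and E2f1 by 0.23 ± 0.01, with another E2f1 probe at 0.17. The proliferation marker Mki67 and the replication helicase subunit Mcm6 passed as higher with saturated control channels, so no fold is given for them. With median centring, 0 of the 29 passed as higher and 24 as lower. Among all genes 68.0% then passed, 4.12% of them as higher, so nothing about the list is read from that count. More of the 29 passed as higher with loess and more as lower with median centring, so no direction is given for the list. With median centring the histone chaperones counted 1 higher and 15 lower of 19 and the architectural proteins 0 higher and 14 lower of 18. The medians were then -0.54 for S phase and mitosis, -0.35 for the chaperones and -0.44 for the architectural proteins. Over all genes the median was -0.31, and nothing is read from these counts either.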

How the data were processed

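Total RNA was labelled and hybridised to 2 two-colour arrays on 1 slide. Spot and background intensity values were read by Agilent Feature Extraction 9.1.3.1, per the file headers. The deposited processed intensity was background-subtracted and dye-normalized by that software, per the file headers. The authors' deposited log10 ratio of red over green comes from those signals, and its sign was turned here. Flags for saturation, background and outliers are other deposited values, written per the file headers by the scanner software. The probes' genome build was not given in the sources used here, and no coordinates were used.

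Mean signals were corrected by normexp (offset 50) and normalized by loess in limma 3.58.1 (R 4.3.3). Probes well above background in 1 channel on both arrays were kept (24434 of 41174), and the brightest of them stood for its gene. Names were updated with RefSeq's GRCm38.p6 gene table (24375 probes by accession, 6301 by symbol, 2426 by synonym, 8072 not updated). Ratios were tested against 0 by lmFit and eBayes. The two-sided p-values were adjusted by Benjamini and Hochberg's method over 16585 genes, with a threshold of 0.05. The prior had 13.6 degrees of freedom. The smallest two-sided p of a sign permutation of 2 arrays is 0.5, so the adjusted p-values depend on the variance that eBayes shares between genes. Only 2 arrays limit the precision. The steps were tested on simulated arrays. These held no dye bias of single probes, so they cannot show how such a bias affects the calls made here.

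The genes and lists were chosen with earlier results of these data known. The text names all 8 genes with every probe, Cbfa2t3, and up to 4 list genes past the threshold in each direction by size. Nrgn, the marker genes and the related sequences were named after their values were seen. Alternatives were the processed signals, the deposited ratios, offset 0, no background correction, median centring, no filter on dim probes, the mean of a gene's probes, leaving out saturated probes and leaving out each array. Loess without saturated spots was added after seeing the data. Spots at the scanner limit keep their normalized ratio in counts and medians.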

Additional observations from a re-analysis of the deposited data

How the results depend on the processing

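Hmga1 was below 0 under every setting run, from -1.87 to -1.68 when 1 array was left out and at -2.39 with median centring. Cbfa2t3 was between -0.46 and -0.39 with 1 array left out, at -0.98 with median centring and at -0.32 with the mean of its probes, and passed under every setting with both arrays. The 6749 genes called became 2487 with the processed signals and with the deposited ratios, and 11273 with median centring, where 4.12% of calls were higher against 45.2%. The 60 calls in the related lists became 17 with the processed signals and with the deposited ratios, and 87 with median centring. The shares of all genes called were 40.7%, 15.0% and 68.0% in the same order, so nothing about the lists is read from these counts. With median centring 6 HMG genes were below 0 on both arrays and 0 above, against 3 and 4. Over all genes such shares were counted only for the loess ratios reported here, at 43.8% below and 35.3% above. With saturated probes left out, 1 was above 0 on both arrays. With 1 array left out, 3 were below 0 and 4 above. The range over the 4 Hmgb1 probes, 0.84, became 0.53 with the processed signals and with the deposited ratios and 1.05 with median centring, and was 0.60 to 1.07 with 1 array left out. Signs turned for Hmgb3 (0.003 with the processed signals and with the deposited ratios), Hmga2 (-0.0023 with the mean of its probes, -0.13 with median centring), Hmgb2 (-0.39 with median centring, -0.068 with saturated probes left out) and Hmgn1 (-0.27 with median centring). The cause of these shifts was not tested. Calls need both arrays, so no counts of calls were made with 1 array left out. Each array's ratio already pairs its 2 samples, so the pairing is part of every fit. Dim probes (Hmga2, Hmgn3, 1 of Hmgn1) and saturated control spots (Hmgb2, Hmgn1, Hmgn2) limit what the signals can show.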
